A study of Homo sapiens with 46 samples.

Results

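MT-ND6 (ENSG00000198695) is the gene for ND6, a membrane subunit of respiratory complex I. It is 1 of the 58735 genes counted in these data and 1 of the 13 protein-coding genes of human mitochondrial DNA (mtDNA). It was selected on its log2 fold changes in these same data, because the reads counted on it lay higher after COX1 silencing and lower after ND5 silencing. Those contrasts are therefore described here and not tested. Human mtDNA is copied into RNA from both strands as long precursors, which are cut largely at the tRNAs that separate the mRNAs and rRNAs. Nearly all mRNAs and the rRNAs come from the precursor of the heavy strand, while MT-ND6 is the single mRNA encoded on the other side, in the light-strand precursor, together with a set of tRNAs. The ND6 mRNA is known to lack the short poly(A) tail of its heavy-strand counterparts, and much of the remaining light-strand RNA is degraded quickly by the helicase SUPV3L1 and the nuclease PNPT1.

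The RNA came from HEK293T cells (a human embryonic kidney line, here the HEK293-Flp-In T-Rex derivative, wild type throughout) that were transfected for 48 hours. Each treatment used 1 chimera at 2 µM, added with the delivery agent Endo-Porter. A chimera is a morpholino joined to the yeast presequence pCox4, which carries it into mitochondria. The morpholino is complementary to a mitochondrial mRNA at or near the start of the targeted frame. The control received pCox4 in click reaction buffer with no morpholino. The 46 libraries cover the control and 11 treatments, named ATP6, ATP8, COX1, COX2, COX3, CYTB, ND1, ND2, ND3, ND4L and ND5 after the silenced gene. The RNA-seq set used here holds no treatment aimed at the ND6 mRNA. Conditions have 4 libraries each, except COX2 (replicates 2, 3 and 4) and ND2 (replicates 1, 3 and 4), which have 3. There were 2 batches, prepared on different days with different reagent batches. The first holds replicates 1 and 2 and the second replicates 3 and 4. The libraries were made from RNA enriched for poly(A) tails. The paper calls the replicates biological, and p-values measure the spread between these libraries of 1 cell line.

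MT-ND6 has a single exon of 525 bases at chrM 14149 to 14673 on the minus strand (GRCh38, GENCODE release 29). It meets MT-ND5 tail to tail. MT-ND5 runs on the plus strand to base 14148, so 0 bases lie between the ends of both frames. On the other side MT-TE, the tRNA for glutamate, follows directly at 14674 to 14742 on the minus strand, and MT-CYB starts 4 bases after it at 14747 on the plus strand. The facing ends, read from the annotated transcripts 5′ to 3′ with the last 3 bases in capitals, are shown because reads that run past the end of one frame fall into the other gene:
MT-ND5, chrM:14119-14148, plus strand: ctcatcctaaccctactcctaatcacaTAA
MT-ND6, chrM:14149-14178, minus strand: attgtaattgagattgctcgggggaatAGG

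The sense strand of MT-ND6 has a base composition unlike that of the other mRNAs. It holds 35.6% G and 7.05% C, whereas the 12 heavy-strand mRNAs hold 6.28% to 16.2% G and 29.5% to 36.0% C.

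What the counts at MT-ND6 can hold had to be established first, since the use of strand in counting is not given in the sources used here. There are 125 genes of at least 200 bases that lie wholly inside the exons of a single gene of the opposite strand, with that outer gene at 10 or more reads per base over the 46 libraries. None of the 125 had a read in any library, as is seen when reads are counted without strand and those shared by overlapping genes are dropped. At the read density of the outer genes, 2610020 reads would have fallen on them. The antisense gene AC006064.4 inside GAPDH, for example, had 0 reads, against 761 reads per base on GAPDH. No gene of the annotation overlaps MT-ND6. Light-strand ND6 mRNA and heavy-strand RNA copied across the same bases, such as an MT-ND5 transcript that extends past its frame, therefore cannot be told apart in its count, and the values below are given as reads at MT-ND6. Nuclear copies took few reads. Of 27 annotated MTND6P pseudogenes, 19 had no read, and together they held 115 reads against 674116 at MT-ND6, which is 0.0171%.

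The other sequences that bear on the treatments are the binding sites of the chimeras. The COX1 chimera is aimed at bases 1 to 19 of MT-CO1 and the ND5 chimera at bases 3 to 25 of MT-ND5, counted from the first base of the annotated transcript. Both sites are given below from the reference, with the longest run that also occurs in MT-ND6 mRNA in capitals:
MT-CO1, chrM:5904-5922, plus strand: atgttcgccgacCGTTGAc
MT-ND5, chrM:12339-12361, plus strand: aaccatgcacACTACtataacca
The runs are 6 and 5 bases long. At the 11 reference sites, 4 of which (ATP6, ND2, ND3 and ND4L) did not match every letter of the chimera list, whose copy was read from page images, the longest shared run was 4 to 7 bases in the ND6 mRNA and 5 to 8 bases in the opposite strand of MT-ND6, where the COX1 site had 6 and the ND5 site 7. Neither site stood outside the range of the other treatments.

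Total counts were 18876395 to 28121898 per library, apart from 100698084 in COX3 replicate 4, and mtDNA genes took 3.80% to 5.34% of them. Reads at MT-ND6 numbered 8915 to 68755 per library (median 13228), so that the 95% Poisson interval of a count was at most 2.08% wide on either side and counting error was small beside the spread between libraries. The epithelial keratin KRT8 (329 to 530 CPM, the count scaled by library size after TMM normalization) and the cadherin CDH2 (91.3 to 110 CPM) were present in every library, while PTPRC, PECAM1, ALB and HBB, markers of blood, endothelium, liver and red cells, stayed under 1 CPM.

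In control cells the reads at MT-ND6 came to 518, 547, 564 and 552 CPM in replicates 1 to 4, a mean of 545 ± 19.5 (SD, n = 4), and to 1.21% ± 0.0813 of all mtDNA reads (SD, n = 4). Per length, this was 1039 ± 37.1 RPKM, the CPM divided by the gene's length in kb (SD, n = 4). MT-ND6 thus ranked 12 among the 13 protein-coding genes in the control, above MT-ATP8 (504 ± 103, SD, n = 4) and below MT-ND5 (1399 ± 162, SD, n = 4). MT-CO1, the highest, was at 7783 ± 402 on the same scale (SD, n = 4). The genes are called mRNAs here, although MT-ATP8 and MT-ATP6 lie on a shared, bicistronic one, and MT-ND4L and MT-ND4 on another. MT-ATP8 (8366 to 8572) also overlaps MT-ATP6 (8527 to 9207). Reads dropped in the overlap would lower the MT-ATP8 value, so the place of MT-ND6 above it is uncertain. The reads per kb at MT-ND6 came to 0.777, 0.736, 0.663 and 0.815 of those at MT-ND5 in the 4 control libraries.

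After COX1 silencing the reads at MT-ND6 were at 775, 779, 624 and 818 CPM in replicates 1 to 4. All 4 libraries lay above all 4 controls, at 146%, 146%, 112% and 147% of the control of their batch. The log2 fold change was 0.46 (standard error 0.070), with 0.55 in batch 1 and 0.36 in batch 2. Replicate 3 is the library nearest to the control, and without it the log2 fold change was 0.53. The targeted mRNA, MT-CO1, was at 3961 to 5661 CPM after COX1 silencing, below its control range of 11115 to 12487 CPM.

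After ND5 silencing the same gene was at 325, 434, 452 and 415 CPM. Here all 4 libraries lay below all controls, at 61.0%, 81.5%, 80.9% and 74.4% of the control of their batch. The log2 fold change was -0.42 (standard error 0.070), with -0.50 in batch 1 and -0.37 in batch 2. Replicate 1 is the lowest library, and the log2 fold change without it was -0.33. MT-ND5, the targeted mRNA, was at 1994 to 2533 CPM, which overlaps its control range of 2301 to 2940 CPM. These values chose the gene and are given without a test.

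**Figure D1:**
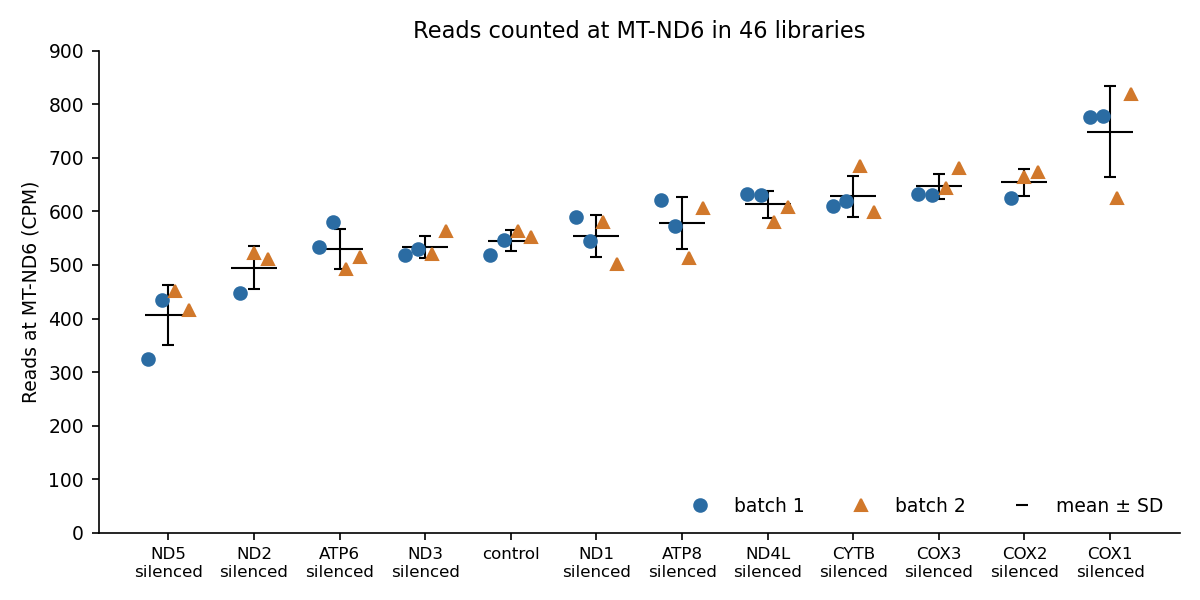
Reads at MT-ND6 in CPM (TMM-normalized; y axis, from 0) in each of the 46 libraries, with conditions in order of their mean level relative to the batch control along the x axis. Circles are batch 1, triangles batch 2, and bars give the mean ± SD of a condition; the 4 ND5-silenced libraries lie at 325 to 452 CPM, below all controls (518 to 564 CPM), and the COX1-silenced ones at 624 to 818 CPM, above them.

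The remaining 9 treatments did not choose the gene, although they share their control libraries with those that did. Among the complex IV subunits, reads at MT-ND6 were at 625, 664 and 673 CPM after COX2 silencing. COX3 silencing gave 632, 631, 643 and 681 CPM. All 7 libraries of these treatments lay above all controls, at 115% to 122% of the batch control. Silencing of CYTB, the mtDNA-encoded subunit of complex III, gave 610.2, 619.7, 684 and 598 CPM, again above every control relative to its batch (107% to 123%).

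Silencing of complex I subunits other than ND5 gave values on both sides of the control. After ND4L silencing the reads at MT-ND6 were at 633, 631, 580.2 and 608 CPM, which is 104% to 119% of the batch control. ND1 silencing gave 590.0, 546, 579.8 and 503 CPM, and ND3 silencing 519, 530.2, 521 and 564 CPM, and both overlapped the control. ND2 silencing gave 449, 523 and 512 CPM, from 84.2% to 93.7% of the batch control, and all 3 libraries were below the controls on that scale.

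For ATP synthase, ATP6 silencing gave 533, 581, 492 and 516 CPM. ATP8 silencing gave 621, 572, 513 and 607 CPM. In both treatments the libraries lay on either side of the control, with ATP6 at 88.1% to 109% and ATP8 at 92.0% to 117% of the batch control.

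None of the 9 differences from the control passed the test, which set an adjusted p of 0.05 over all genes tested (edgeR quasi-likelihood test, Benjamini-Hochberg); across the 9 treatments 0.185% of all gene tests passed it. The largest was the COX2 one, at 0.26 on the log2 scale with a 95% interval of 0.11 to 0.41 (adjusted p = 0.0882, edgeR), higher in 3 of 3 libraries. It was followed by COX3 with 0.25 (interval 0.11 to 0.39, adjusted p = 0.114), CYTB with 0.20 (0.06 to 0.34, adjusted p = 0.158) and ND4L with 0.17 (0.03 to 0.31, adjusted p = 0.254), each higher in 4 of 4 libraries. These 4 had an unadjusted p under 0.05. With DESeq2 in place of edgeR, 1 of the 9 passed, COX2 (adjusted p = 0.0467). When each treatment was fitted with the control libraries alone, 3 passed: COX2 (0.00589), COX3 (0.00630) and CYTB (0.00858). With no filter on low counts, all 4 passed. For these other settings the share of all genes that passed is not given here.

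The other 5 treatments had intervals that included 0. The log2 fold change was 0.09 for ATP8 (interval -0.06 to 0.23), 0.02 for ND1 (-0.12 to 0.17), -0.03 for ND3 (-0.17 to 0.11), -0.04 for ATP6 (-0.18 to 0.10) and -0.14 for ND2 (-0.30 to 0.01). In these treatments a change of the size seen after COX1 or ND5 silencing lay outside the interval.

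The 9 treatments did differ from each other. An F test of their 8 contrasts, which involves no library of the control, COX1 or ND5 in a contrast, gave F = 7.20 for MT-ND6 (adjusted p = 0.00267, edgeR), rank 17 of the 20272 genes tested, of which 0.168% passed. The adjusted p stayed under 0.05 with any 1 of the 46 libraries left out (0.000146 to 0.0166). It was 0.0658 with no batch term, 0.163 with the libraries of batch 1 alone and 0.176 with those of batch 2 alone. No treatment stood out by itself from the mean of the other 8, a comparison added after the data were seen. The ND2 treatment was furthest below that mean (log2 difference -0.26, adjusted p = 0.249, edgeR) and COX2 furthest above it (0.20, adjusted p = 0.587).

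Ordered by the mean percentage of the batch control, the levels rose from ND5 (74.5% ± 9.55) through ND2 (89.9% ± 5.01), ATP6 (97.4% ± 9.18), ND3 (97.8% ± 3.36), ND1 (102% ± 8.62), ATP8 (106% ± 10.3), ND4L (113% ± 7.33), CYTB (115% ± 6.32), COX3 (119% ± 2.77) and COX2 (119% ± 1.61) to COX1 (138% ± 17.1; all SD, n = 4, or 3 for ND2 and COX2). The ends of this order, ND5 and COX1, are the treatments that chose the gene. COX2 and COX3 came next below COX1, and the step from CYTB to COX3 was within the spread. Neighbours in the order did not differ beyond their spread in 9 of 11 cases, counting the control as a step. The exceptions were the gap from ND5 to ND2, the 1 pair whose ranges did not overlap, and the gap from COX2 to COX1, where COX1 replicate 3 lay below all COX2 libraries.

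The levels were next set against the 12 heavy-strand mRNAs. The level relative to them was part of the rule that chose the gene. The COX1 and ND5 values on this scale are therefore a description as well. After COX1 silencing the 11 mRNAs that were not targeted had log2 fold changes from 0.00 (MT-ND2) to 0.34 (MT-ND3), with a median of 0.20, and all 11 lay below the 0.46 of MT-ND6. After ND5 silencing the 11 ran from -0.03 to 0.29, with a median of 0.10, and all lay above the -0.42 of MT-ND6. Over all genes tested the median was 0.00 in both treatments. With the geometric mean of the 12 heavy-strand counts in place of the library size, the log2 fold change of MT-ND6 was 0.40 (standard error 0.075) after COX1 silencing and -0.48 (standard error 0.076) after ND5 silencing. That scale contains the targeted mRNA itself, and with it left out the values were 0.27 (standard error 0.076) and -0.50 (standard error 0.080). With all 12 in the scale the libraries stood at 135%, 146%, 115% and 132% of their batch control after COX1 silencing. After ND5 silencing they stood at 55.8%, 75.8%, 74.9% and 80.0%.

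On the same scale none of the 9 other treatments passed the test (0.0581% of all gene tests did), with COX2, COX3 and CYTB at an unadjusted p under 0.05. Log2 values were 0.23 ± 0.075 (standard error) for COX3 (adjusted p = 0.469, edgeR), 0.18 for CYTB (adjusted p = 0.515), 0.17 for COX2 (adjusted p = 0.346) and 0.15 for ND4L (adjusted p = 0.598), and -0.09 each for ND1, ND2 and ND3. Here too the scale contains the targeted mRNA of each treatment, also in the F test that follows. The log2 fold change of that mRNA was 0.79, 1.02 and 0.80 after ND1, ND2 and ND3 silencing. It was -0.49, -0.33, -0.22 and -0.29 after COX3, CYTB, COX2 and ND4L silencing. With the targeted mRNA left out the ND2 value changed sign, while those of ND1 and ND3 did not. The F test across the 9 treatments gave F = 5.56 (adjusted p = 0.0130, edgeR), rank 24, with 0.261% of genes past the threshold. That call rests on the choice of scale, for with the sum of the heavy-strand counts, in which MT-CO1 weighs most, the adjusted p was 0.402.

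**Figure D2:**
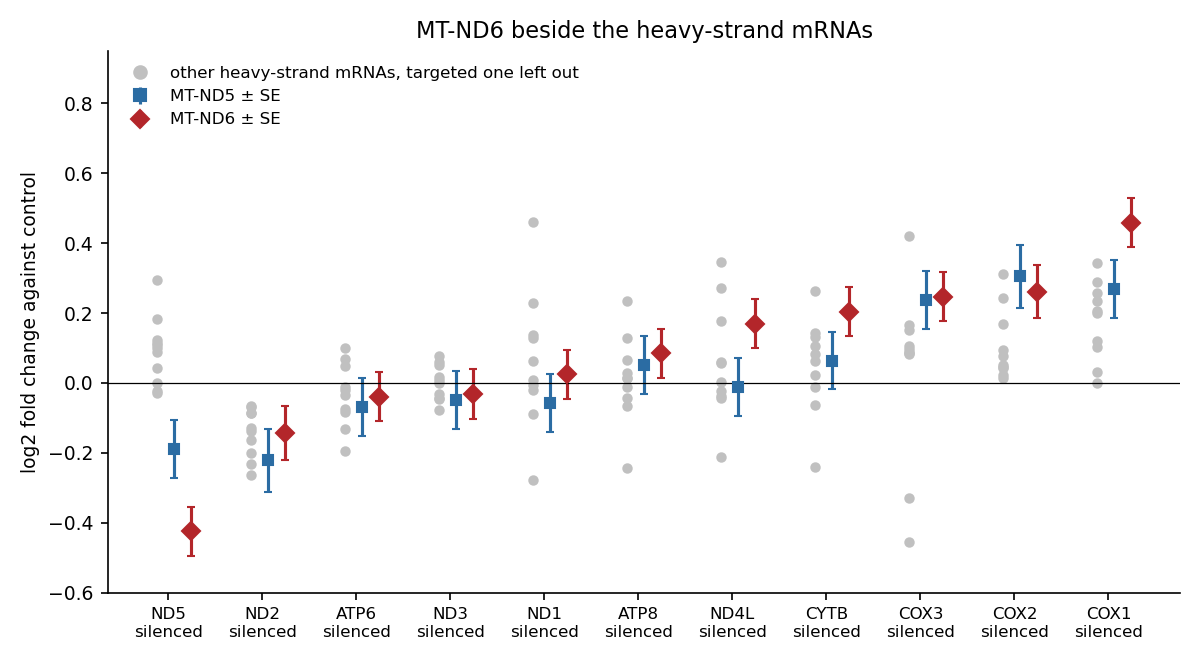
Log2 fold change against the control (y axis) after each of the 11 treatments (x axis) for MT-ND6 (diamonds, ± standard error), MT-ND5 (squares, ± standard error) and the other heavy-strand mRNAs without the targeted one (grey points). MT-ND6 lies above all grey points after COX1 silencing (0.46) and below all of them after ND5 silencing (-0.42), and MT-ND5 lies on the same side of 0 as MT-ND6 in both.

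MT-ND5, which ends where MT-ND6 ends and encodes another membrane subunit of complex I, is its direct neighbour on the heavy strand. The MT-ND5 log2 fold change was 0.27 after COX1 silencing (standard error 0.083), 0.30 after COX2 (0.089), 0.24 after COX3 (0.083), -0.22 after ND2 (0.090) and -0.19 after ND5 silencing (0.083). None of these MT-ND5 changes passed the test (lowest adjusted p = 0.0916, COX2, edgeR). In the COX2 and COX3 treatments the MT-ND5 value differed by at most 0.04 from that of MT-ND6. The gap, MT-ND6 minus MT-ND5, was 0.19 after COX1, 0.18 after ND4L, 0.14 after CYTB and -0.24 after ND5 silencing. Other heavy-strand mRNAs lay nearer to MT-ND6 in some treatments, as MT-ND3 did after COX1 (0.34) and CYTB silencing (0.26) and MT-CYB after ND2 silencing (-0.14).

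Over the 46 libraries, with the batch mean removed from log2 CPM, the Pearson r between MT-ND6 and MT-ND5 was 0.723, the highest of 20271 genes. Without the COX1 and ND5 libraries r was 0.720, rank 2, over 38 libraries. The libraries share their treatments, batches and library sizes, so these r are descriptions. Over all 46 libraries MT-CO2 was the next heavy-strand mRNA at 0.274, and MT-CO1 was at -0.448. Without the COX1 and ND5 libraries the r of MT-CO1 was 0.468 (rank 126), the next after MT-ND5, and that of MT-CO2 0.317. Next in the ranking by r came PHYH, an enzyme of peroxisomal fatty acid alpha-oxidation (0.652), CNIH3, an auxiliary protein of glutamate receptors (0.649), the scaffold HOMER2 (0.588), the cap-binding protein EIF4E2 (0.581), MT-TP, the light-strand tRNA for proline (0.576), GPR180 (0.550), the co-chaperone STIP1 (0.538), the RNA-binding protein YBX1 (0.535) and the spectrin SPTBN1 (0.528). The gene at rank 11, EYA2, had r = 0.524, so the list has no natural end. Of these 10, 2 remained among the top 10 without the COX1 and ND5 libraries, where the r of PHYH was 0.107 and that of GPR180 -0.386.

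**Figure D3:**
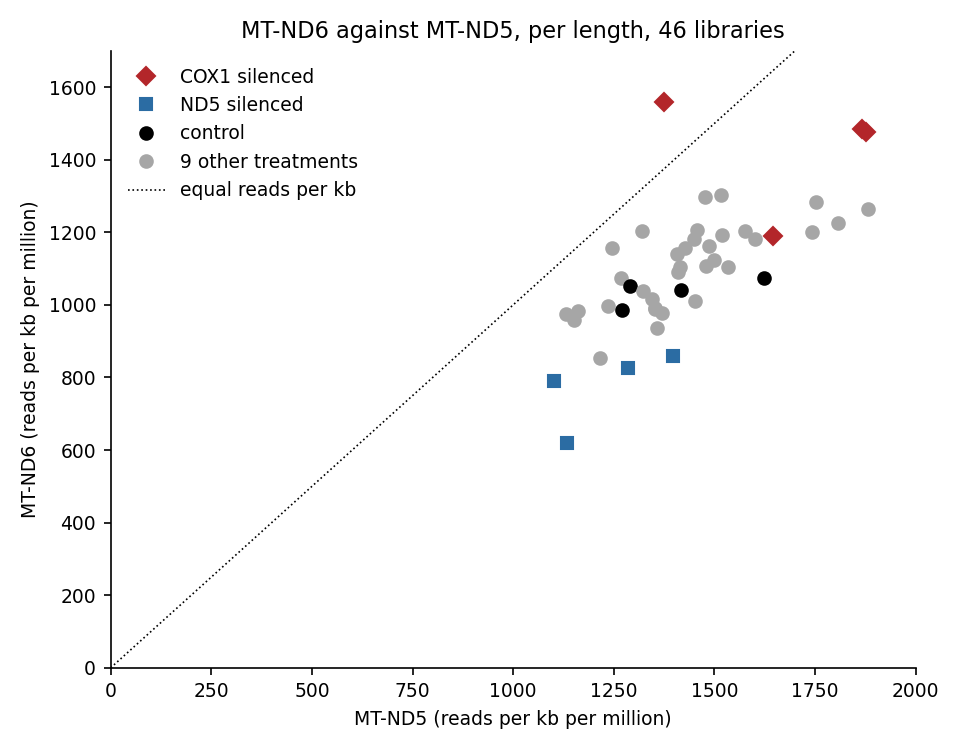
RPKM (CPM per kb of gene length) at MT-ND6 (y axis) against MT-ND5 (x axis), both from 0, with 1 point for each of the 46 libraries. Diamonds are COX1-silenced, squares ND5-silenced, black circles control and grey circles the 9 other treatments; 45 points lie below the dotted line of equal reads, and COX1 replicate 4 lies above it, at a ratio of 1.13.

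The ratio of MT-ND6 to MT-ND5 reads, per length, spread less between treatments than the level itself. After ND5 silencing it was 0.546, 0.644, 0.615 and 0.719, below the 0.663 of the lowest control in 3 of 4 libraries. After COX1 silencing it was 0.787, 0.794, 0.722 and 1.13. The first 3 of these lay within the control range of 0.663 to 0.815, and the value above it is that of replicate 4 alone. In terms of the batch control the COX1 libraries were at 104%, 105%, 97.8% and 154%. With MT-ND5 counts as the scale, a setting added after the data were seen, the log2 fold change of MT-ND6 was 0.20 after COX1 silencing (standard error 0.11) and -0.25 after ND5 silencing (standard error 0.11). The F test across the 9 other treatments then gave F = 0.805 (adjusted p = 0.666, edgeR). Their log2 fold changes on that scale ran from -0.05 (COX2) to 0.18 (ND4L), with standard errors of 0.11. After ND5 silencing MT-ND5 is the targeted mRNA itself (log2 fold change -0.19), so the ratio and the MT-ND5 scale contain the target there.

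The replicates of a condition offer a further view of the pair. The fit of condition and batch leaves in its deviations any difference of a treatment between the batches. Levels against the control of the same batch were part of the choice of the gene, so these deviations are not independent of it. As deviations from the fit of condition and batch over the 46 libraries, MT-ND6 and MT-ND5 had a Pearson r of 0.333 (permutation p = 0.0274, 2-sided, 0.0411 after Benjamini-Hochberg adjustment over 3 relations) and a Spearman rho of 0.358 (permutation p = 0.0170, adjusted 0.0255). Without the 2 libraries furthest from the median of MT-ND5, COX1 replicate 4 and control replicate 3, r was 0.434. The batches differed, with r of 0.663 in batch 1 and 0.128 in batch 2. Separate means for every condition and batch leave only differences between replicates of the same batch. With them r was 0.183 (permutation p = 0.250), so the relation did not hold in that form. For the mean of the 12 heavy-strand mRNAs r was 0.391 (permutation p = 0.00819, adjusted 0.0246) and rho 0.383 (permutation p = 0.00997, adjusted 0.0255). This rested on batch 2 (r = 0.628) and was not seen in batch 1 (r = -0.0262), and r fell to 0.256 without its 2 furthest libraries. For the sum of the 8 light-strand tRNAs r was 0.0759 (permutation p = 0.622) and rho -0.0144 (permutation p = 0.926), with r = 0.00717 without its 2 furthest libraries.

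MT-ND6 shares the light-strand precursor with 8 tRNA genes, MT-TQ, MT-TA, MT-TN, MT-TC, MT-TY, MT-TS1, MT-TE and MT-TP, for glutamine, alanine, asparagine, cysteine, tyrosine, serine, glutamate and proline. In the 9 treatments that did not choose the gene, 1 of 72 tests of these tRNAs passed, MT-TE after CYTB silencing, where 0.38% of all genes were called higher, and 22 of the 72 had an unadjusted p under 0.05. Of the 8, MT-TP (0.576) and MT-TN (0.504, rank 18) had the highest r with MT-ND6 over the 46 libraries, and without the COX1 and ND5 libraries they had 0.582 and 0.531. Reads at MT-TE were at 23.4, 25.3, 21.7 and 13.7 CPM after CYTB silencing and at 1.95, 1.90, 2.77 and 1.61 CPM in the control. All 4 silenced libraries lay far above all controls, by 3.35 on the log2 scale (± 0.20, standard error) with an adjusted p of 1.45e-18 (edgeR). MT-TE lies between MT-ND6 and the MT-CYB frame at which that chimera is aimed, and MT-ND6, directly beside it, had a log2 fold change of 0.20 in the same libraries.

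After COX1 silencing, given as a description, 3 of the 8 tRNA genes were called higher, where 0.0345% of all genes were. Reads at MT-TY rose from 11.7 to 13.7 CPM in the control to 50.0 to 66.6 CPM (log2 fold change 2.21, standard error 0.093). MT-TC was at 107 to 119 CPM against 35.4 to 54.7 CPM in the control (1.33, standard error 0.097), and MT-TN at 23.9 to 29.8 CPM against 9.67 to 16.5 CPM (1.15, standard error 0.15). These genes lie at 5657 to 5891, ahead of the MT-CO1 frame that starts at 5904 on the other strand. MT-TP, the member nearest to the promoter of the light strand, had 0.29 (standard error 0.11), and MT-TE -0.08 (standard error 0.24). After ND5 silencing none of the 8 was called. Their median log2 fold change was 0.06, against -0.42 for MT-ND6, and that of MT-TP was -0.16 (standard error 0.12). As at MT-ND6, reads of both strands can be held in these counts, and 3 of the 8 genes (MT-TQ, MT-TA and MT-TS1) were under 1 CPM on average in the control.

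**Figure D4:**
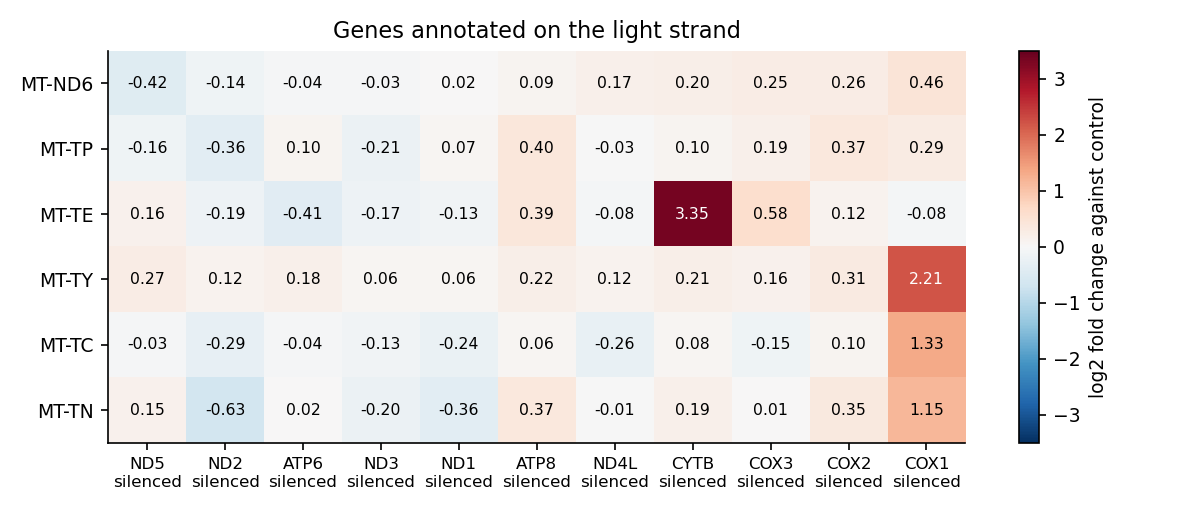
Log2 fold change against the control (colour and number) for MT-ND6 and the 5 light-strand tRNA genes with a mean of at least 1 CPM in the control (rows), after each of the 11 treatments (columns, ordered by the level of MT-ND6). The highest values are MT-TE after CYTB silencing (3.35) and MT-TY after COX1 silencing (2.21), and the MT-ND6 row runs from -0.42 to 0.46.

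Of the heavy-strand rRNAs, MT-RNR2, the large rRNA of the mitochondrial ribosome, passed the test in 4 of the 9 treatments. It was higher after COX2 (log2 fold change 0.35, adjusted p = 0.00580, edgeR), ATP8 (0.31, adjusted p = 0.0188) and COX3 silencing (0.30, adjusted p = 0.0186), and lower after ND2 silencing (-0.36, adjusted p = 0.0116). The small rRNA MT-RNR1 was higher after ATP8 (0.75), ATP6 (0.52), COX2 (0.45) and COX3 silencing (0.33). After ATP6 silencing MT-RNR1 therefore passed while MT-ND6 was at -0.04. Of all genes tested, 0.469% passed after COX2, 0.306% after COX3, 0.0641% after ATP8, 0.0247% after ND2 and 0.00987% after ATP6 silencing.

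Finally, 41 nuclear genes for transcription, cleavage, stability and decay of mitochondrial RNA were examined, all of which were tested. In 369 tests over the 9 treatments none was called by edgeR, beside 0.185% of all gene tests; 49 had an unadjusted p under 0.05, and DESeq2 called 5, MRPL12, a ribosomal protein that also binds the polymerase, after COX2, CYTB and ND1 silencing (0.24 to 0.26) and RNASEH1, which degrades RNA in RNA-DNA hybrids, after COX2 (0.24) and ND1 silencing (0.21), all higher. The 0.185% is that of edgeR, and the share of all genes called by DESeq2 is not given here. MRPL12, RNASEH1 and FASTKD5 are named after their values were seen. The range of log2 fold changes over the 9 treatments was -0.04 to 0.08 for the helicase SUPV3L1, -0.10 to 0.11 for the nuclease PNPT1 and -0.01 to 0.05 for GRSF1, the RNA-binding protein that assists them on light-strand RNA. For FASTK, which is needed for a normal level of ND6 mRNA, it was -0.05 to 0.06. The polymerase POLRMT ran from 0.01 to 0.15 and the packaging and transcription factor TFAM from -0.12 to 0.03. LRPPRC, which with SLIRP stabilises heavy-strand mRNAs, ran from -0.05 to 0.06 and SLIRP from 0.04 to 0.27. None of the 41 was called by edgeR after COX1 or ND5 silencing either, where 0.0543% and 0.158% of all genes were. After ND5 silencing FASTKD5, which takes part in cutting mitochondrial precursor RNA, was called lower by DESeq2 (-0.22, adjusted p = 0.0277) and by edgeR with the replicate number as a block (-0.22, adjusted p = 0.0289). FASTK had -0.05 (standard error 0.065) after COX1 and -0.04 (standard error 0.065) after ND5 silencing.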

How the data were processed

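RNA-seq was performed on HEK293T cells, and the authors deposited raw counts of reads per gene together with gene length in bases. The submitters' processing notes name R 4.3.0, DESeq2 1.40.2, limma 3.56.2 and GRCh38.p12; the aligner and counter are not given in the sources used here. All 58735 gene identifiers match GENCODE release 29. Groups, replicates and batches follow the sample records and the paper. The gene, the lists and the rule for naming genes (MT-ND6, other mtDNA genes, the 10 most alike by r, 8 set RNA factors and any factor called) were chosen with earlier results of these data known. The deposited counts of 46 libraries were fitted with edgeR 4.0.16 in R 4.3.3 (quasi-likelihood F test, TMM, terms for condition and batch) over 20272 genes kept by filterByExpr (minimum count 10). P-values were adjusted by Benjamini-Hochberg. Log2 CPM used a prior count of 2, and correlations used 100000 permutations within batch. The script was tested on simulated data. Alternatives included DESeq2 1.42.0, no batch term, other filters, scales and sizes, and each library left out. Same-numbered libraries of different conditions deviated together (mean r 0.206, lowest 0.101 in 242 pairs), much as libraries of the same batch with another number did (0.183); this pairing comes from the data, and the blocked fit is among the alternatives. Replicates differed by more than sampling noise (chi-square 3.47 to 23.4 per degree of freedom).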

Additional observations from a re-analysis of the deposited data

Results flagged for a closer look

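Across 50 tests of groups of 4 libraries (5 measures of MT-ND6 in 10 conditions; the 2 conditions with 3 libraries were not tested), 1 library stood apart from its group by Dixon's test. COX1 replicate 3 was at 111.9% of the control of its batch, while the other 3 COX1 libraries were at 146%, 146% and 147%. Chance flags about 1 in 20 groups. The gap was 0.969 of the range of the group, and it was not past the critical value for CPM or for the scale of heavy-strand mRNAs. COX1 replicate 4, the highest in the ratio of MT-ND6 to MT-ND5 (1.13), had a gap of 0.825 of the range and was just under that value.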

How the results depend on the processing

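The directions after COX1 silencing (0.36 to 0.54) and ND5 silencing (-0.49 to -0.37) were kept under all 10 alternatives without a heavy-strand scale, and with each control, COX1 or ND5 library left out they were 0.41 to 0.53 and -0.48 to -0.33. On the heavy-strand scale the COX1 value moved to 0.58 with the sum of heavy-strand counts and to 0.20 with MT-ND5 counts. The number of the 9 treatments called against the control was 0 but became 4 with no filter, 3 with only the libraries compared and 1 with DESeq2. It stayed 0 in all 46 fits with a library left out, with the replicate block (COX2 0.25, adjusted p = 0.0776) and relative to the mean of the other 8. The F value across the 9 treatments was no longer past the threshold with no batch term (6.07), in batch 1 alone (4.98) and in batch 2 alone (5.70); on the heavy-strand scale, where it was lost with no batch term (2.43), in batch 1 (3.47), in batch 2 (2.64), with the sum of counts (3.51) and with MT-ND5 counts (0.805). The replicate block, in which the replicate number pairs the libraries in place of the batch, kept it (7.02, adjusted p = 0.00221, and 5.42, adjusted p = 0.0105, edgeR) and changed no other call of MT-ND6 or the gene lists but that of FASTKD5 after ND5 silencing (-0.22, adjusted p = 0.0289). The cause of these changes was not tested, apart from single batches holding fewer libraries.

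Small values changed sign. Without the heavy-strand scale these were ATP6 in batch 1 (0.067) and ND1 in batch 2 (-0.044), and on it ATP6 in batch 2 (-0.074) and without the targeted mRNA (-0.0025), ND1 with the sum of counts (0.014), ND2 without the targeted mRNA (0.0031), and, with MT-ND5 counts, COX2 (-0.046), ND1 (0.073), ND2 (0.065) and ND3 (0.0062). With a library left out, ATP6 ran from -0.10 to 0.00015, ND1 from -0.0066 to 0.070 and ATP6 on the heavy-strand scale from -0.032 to 0.045. The RNA factor list held 0 calls, 10 with no filter, 5 with DESeq2 and 0 to 2 with a library left out (2 without COX2 replicate 4). The light-strand tRNA list held 1 call, 7 with no filter, 2 in batch 1 alone and 1 to 2 with a library left out (2 without ATP8 replicate 3). For the alternative settings of both lists the share of all genes called is not given here. The correlation of MT-ND6 and MT-ND5 within conditions was 0.183 with condition by batch means. Of the 10 genes most like MT-ND6, 4 were shared with Spearman's rho and 2 without the COX1 and ND5 libraries. Counting error at MT-ND6 was at most 2.08% of a count, so the number of libraries, not depth, limits the values of this gene. Light-strand tRNA genes can have far fewer reads, as MT-TE with 44 in control replicate 1, and depth can limit their values.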
